A study of Zea mays with 48 samples.

Results

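In the pulvinus of maize plants laid horizontal, 150 probe sets stood highest at 60 min, the last time sampled. A probe set is a group of short oligonucleotides made to read 1 transcript on the Affymetrix Maize Genome Array. Some of the 150 read the same gene, so they are not 150 distinct transcripts. The members were chosen from 17545 probe sets on total RNA, taken as log2(signal + 16), where signal is the brightness of a probe set on a linear scale. A mean log2 value of at least 7 over the 48 arrays left 10299 probe sets. For each of the 5 times, the difference from vertical plants was the mean of 4 reoriented arrays minus the mean of 4 vertical arrays. In 173 probe sets this difference was highest at 60 min and was above 0.4 in each of the 2 repetitions alone, and the 150 with the highest difference were taken. The difference between reoriented and vertical plants in total RNA is therefore given as a description, without a test. The members at the limit were aoc1 at 0.498 and Zm.8344.1.A1_at at 0.4962, and the first probe sets outside it were Zm.15934.2.S1_a_at at 0.4958 and Zm.18425.1.A1_at at 0.4933.

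Maize plants of the inbred line B73, about 6 weeks old and greenhouse-grown, were turned by 90 degrees and harvested after 2, 5, 15, 30 or 60 min, while the vertical plants were never turned. The second pulvinus above the soil was divided into an upper side, which elongates slowly after reorientation, and a fast elongating lower side. Vertical pulvini were divided into left and right sides, and 6 plants were pooled per time and repetition, so that both sides of a pool came from the same plants. Each frozen powder gave total RNA and polysomal RNA, the RNA carried on several ribosomes, and every group had 2 arrays, from 2 growing seasons.

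The pulvinus is a disc of stem tissue at the base of the leaf sheath that keeps the ability to elongate after the neighbouring stem has stopped. Starch-filled plastids settle in some of its cells when the stem is tilted, and the cells of the lower side then elongate more than those of the upper side until the shoot is upright again. Auxin and other hormones are known to take part in such bending. Jasmonate, a hormone that plants make from linolenic acid in response to wounding and mechanical stress, is made in steps that include the desaturase FAD7, allene oxide synthase and allene oxide cyclase.

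The annotation table gave exactly 1 gene for 18 of the 150 members (12%), which covered 16 genes, against 8.75% of the 10299 probe sets tested. The other 132 members have no listed gene here and are named by probe set. The 2% trimmed mean signal of the 48 arrays lay between 495.8 and 499.1 and the median signal between 174.3 and 216.9. The polysomal array labelled upper side, 5 min, repetition 1 stood apart. Across probe sets it correlated at r = 0.90 with the other side of its own pool, against 0.972 to 0.992 in the other 23 pairs, and at 0.981 and 0.980 with the 5 min polysomal arrays of repetition 2. No 60 min difference uses its values, but it enters the shared estimate of the spread. Tissue markers were summed over each total RNA array. Probe sets of other genes that the marker names also matched (a cyclotide, zpu1, LOC541815 (Hb), PLTP and plt2) were left out after the values were seen. The sum of 17 probe sets of dividing-cell genes, 6 of which had a mean of at least 7, ran from 13780.4 to 15659 at 60 min, against 16596 to 18600.5 in vertical plants, so the groups did not overlap. The sums overlapped for 20 green tissue probe sets (16394 to 28094 at 60 min, against 23827 to 26409), for 2 of KNOX genes (1735 to 2410, against 1829 to 3297), for 11 of seed storage genes (561 to 943, against 482 to 926) and for 2 of pollen genes (3.2 to 20.4, against 3.2 to 8.5). No annotated gene was taken to define the pulvinus, and the part of these markers in the results was not tested. In pooled tissue, fewer cells of a type and less RNA per cell cannot be told apart.

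The rule set the members' peak in total RNA at 60 min, so their time course there is a description. The median log2 difference of the 150 members from vertical plants in total RNA was 0.16, 0.01, 0.21, 0.43 and 0.78 at 2, 5, 15, 30 and 60 min, while the median over the 10299 probe sets tested lay between -0.03 and 0.02. At 60 min the members ran from 0.50 to 2.85. By 30 min 84 members had reached at least 50% of their 60 min difference, and by 15 min 49 had done so. At 5 min 21 members lay below -0.4 in total RNA and 12 lay above 0.4, while 75 of the 150 were above 0. The median at 5 min was -0.08 in repetition 1 and 0.05 in repetition 2. These counts are not set against all probe sets tested, so no dip of the members as a set is read from them. The members' medians at 60 min were 0.78 in repetition 1 and 0.75 in repetition 2. Their levels in vertical plants differed between the seasons, with a median of repetition 2 minus repetition 1 of -0.48 in members against -0.10 over all probe sets tested. Probe sets highest at 30 min under the same rule had a median of -0.45, and those highest at 15 min one of -0.39.

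**Figure D1:**
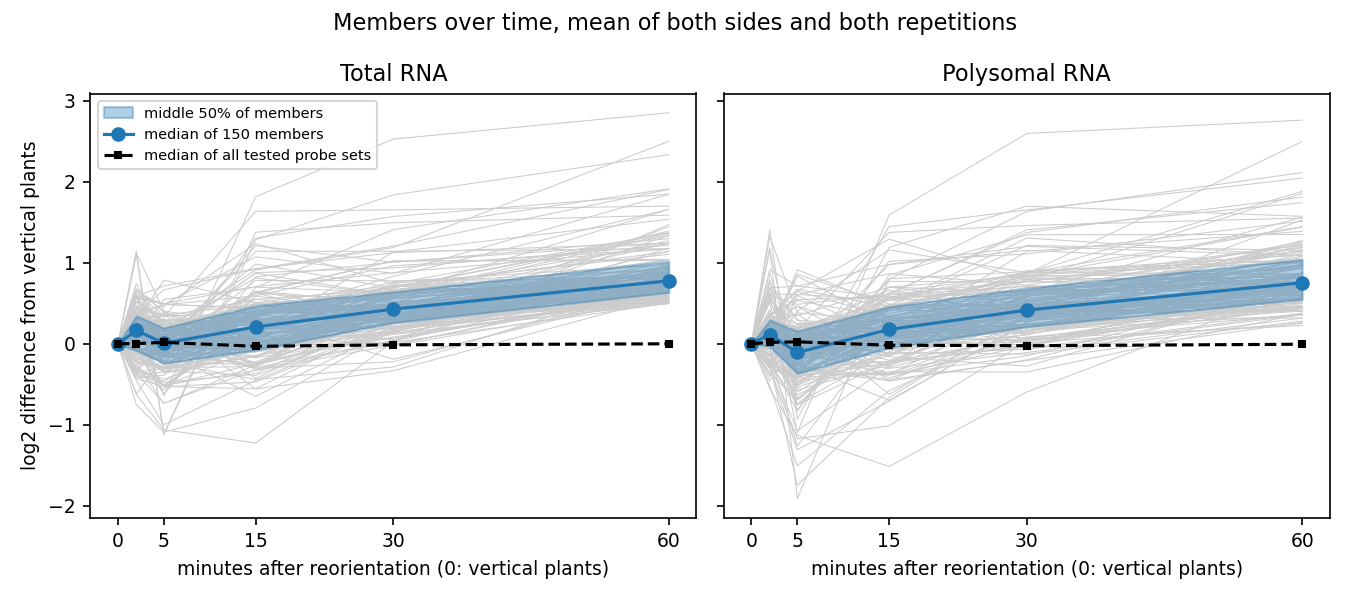
Log2 difference from vertical plants (y axis) against minutes after reorientation (x axis), for total RNA on the left and polysomal RNA on the right; thin lines are the 150 members, the blue line and band their median and middle 50%, and the dashed line the median of all probe sets tested. The members' median reaches 0.78 at 60 min in total RNA and 0.75 in polysomal RNA, while the dashed line stays near 0.

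Of the jasmonate pathway, aos1, aoc1 and LOC542222 (fad7) were members, and all 3 encode enzymes of its synthesis or of its precursor. The gene aos1, for allene oxide synthase, had total RNA differences from vertical plants of -0.24, -0.74, -0.26, 0.70 and 1.14 at 2, 5, 15, 30 and 60 min. Its polysomal signals were 6835 and 2423 on the upper and 5649.8 and 1811 on the lower side at 60 min, against 2878 and 1232 on the left and 2332 and 1328 on the right side of vertical plants. Each 60 min array was above both vertical arrays of its own repetition, but the levels of the 2 seasons lay so far apart that the groups overlapped. In polysomal RNA aos1 was higher by 0.98 at 60 min (SE 0.21, limma adjusted p = 0.0308). This set 4 arrays against 4, each from 2 plant pools. LOC542222 (fad7), for the plastid desaturase that makes linolenic acid, read 1682 and 674 on the upper and 932 and 351 on the lower side at 60 min, against 582 and 291 on the left and 727 and 187 on the right side of vertical plants in polysomal RNA. Its polysomal difference of 0.97 (SE 0.28) missed the threshold at an adjusted p of 0.0988. The gene aoc1, for allene oxide cyclase, had a total RNA difference of 0.50 at 60 min and a polysomal one of 0.36 (SE 0.19, adjusted p = 0.414).

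The jasmonate list held 12 tested probe sets of 10 genes, 2 of which were members. LOC542222 was not in that list. In polysomal RNA at 60 min 10 of the 12 were above 0, with a median difference of 0.43 against -0.01 over all probe sets tested, and only aos1 passed. The 2 members were chosen as high at 60 min from the same powders, so this count and median are in part set by the rule. A second aoc1 probe set, which was no member, differed by 0.51 (SE 0.14, adjusted p = 0.0911). For opr7, which encodes the reductase that follows in jasmonate synthesis, the difference was 0.55 (SE 0.16, adjusted p = 0.0911), and for the lipoxygenase gene lox3 it was 0.76 (SE 0.36, adjusted p = 0.344). Values for opr1 and LOC541694 (MYC2a) were 0.68 (SE 0.25) and 0.55 (SE 0.17), and LOC542702 (PLD1), a phospholipase D gene, was at 0.29 (SE 0.14). Probe sets of opr8, opr5 and lox1 lay between -0.06 and 0.18.

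Of the stress and defence genes, dhn2 and chn1 were members, and neither passed. LOC542251 (dhn2), for a dehydrin, a hydrophilic protein that accumulates when cells lose water, had polysomal signals of 2171 and 1038 on the upper and 2358 and 1244 on the lower side at 60 min, against 522 and 605 on the left and 379 and 648 on the right side of vertical plants. All 4 arrays at 60 min were above all 4 vertical arrays. Its polysomal difference was 2.31 in repetition 1 and 0.84 in repetition 2, and the mean of 1.57 (SE 0.40) missed the threshold at an adjusted p of 0.0658. Among members with a listed gene, dhn2 had the highest total RNA difference at 15 min, with total RNA differences of 1.10, -1.11, 1.38, 1.49 and 1.59 at 2, 5, 15, 30 and 60 min. The other 2 dehydrin probe sets of LOC542251 were no members and differed by 1.03 (SE 0.26, adjusted p = 0.0641) and 1.12 (SE 0.29, adjusted p = 0.0708). LOC542525 (chn1), for a chitinase, an enzyme that cleaves chitin of fungal walls, read 1049 and 178 on the upper and 661 and 218 on the lower side at 60 min, against 81.9 and 88.0 on the left and 535 and 71.9 on the right side of vertical plants. The right vertical array of repetition 1 lay far above the other vertical arrays and inside the range at 60 min. The difference of 1.51 (SE 0.58) did not pass, with an adjusted p of 0.229.

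The transport genes pht1 and mha4 were members, and so was RGP, which was not in the cell wall list. The phosphate transporter gene pht1 had total RNA differences of 0.59, 0.71, 0.93, 1.13 and 1.24 over the 5 times. In polysomal RNA pht1 read 523 and 323 on the upper and 382 and 378 on the lower side at 60 min, against 217 and 127 on the left and 361 and 95.0 on the right side of vertical plants. Only the right vertical array of repetition 1 reached the 60 min range. Its polysomal difference was 1.09 (SE 0.24, adjusted p = 0.0328), and it passed at 15 min (0.98, SE 0.24, adjusted p = 0.0281) and 30 min (1.20, SE 0.24, adjusted p = 0.0116) as well. LOC542052 (mha4), for a plasma membrane proton pump, read 4684 and 5211 on the upper and 4313 and 4022 on the lower side at 60 min, against 3310.1 and 3309 on the left and 3431 and 3107 on the right side of vertical plants. All of its 60 min arrays lay above all of its vertical arrays, yet the small difference of 0.46 (SE 0.14) did not pass (adjusted p = 0.116). LOC542592 (RGP), for a reversibly glycosylated polypeptide that takes part in making cell wall sugars, had 2 member probe sets with polysomal differences of 0.35 (SE 0.19) for the brighter and 0.51 (SE 0.22) for the other, neither past the threshold (adjusted p = 0.429 and 0.291).

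LOC541612 (FDX6) encodes a ferredoxin, a small iron-sulphur protein that carries electrons in plastids. Its polysomal signals were 2578 and 2232 on the upper and 2898 and 2173 on the lower side at 60 min, against 1409.8 and 948 on the left and 1338 and 1026 on the right side of vertical plants. The 60 min arrays and the vertical arrays did not overlap, and the repetitions lay close together, with differences of 0.98 and 1.15. FDX6 was higher by 1.07 at 60 min (SE 0.11, adjusted p = 0.000468) and by 0.46 at 30 min (SE 0.11, adjusted p = 0.0449), while at 15 min its difference of -0.38 did not pass (adjusted p = 0.082).

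Chromatin and transcription factor genes made up 4 of the named members. LOC541871 (HMGIY2), for a chromatin protein that binds AT-rich DNA, read 2978 and 1863 on the upper and 2698 and 1525 on the lower side at 60 min, against 1683 and 1098 on the left and 1617 and 888 on the right side of vertical plants. The upper and lower arrays of each repetition were above the vertical arrays of that repetition, and the groups overlapped across the seasons. HMGIY2 was higher by 0.65 at 30 min (SE 0.11, adjusted p = 0.00371) and by 0.77 at 60 min (SE 0.11, adjusted p = 0.00294). MNB1a, for a Dof zinc finger transcription factor, differed by 0.75 (SE 0.19, adjusted p = 0.0666), LOC541969 (MYB-IF35), for a MYB factor, by 0.64 (SE 0.22, adjusted p = 0.175), and LOC606475 (zfp30), a zinc finger gene by its name, by 0.77 (SE 0.21, adjusted p = 0.091).

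Of the named members whose role is not given here, LOC100037812 was higher by 1.08 at 60 min in polysomal RNA (SE 0.26, adjusted p = 0.049), with 2758 and 2584 on the upper and 2299.8 and 1955 on the lower side at 60 min, against 872 and 1418 on the left and 817 and 1531 on the right side of vertical plants. The groups did not overlap. LOC542286 had 2 member probe sets. The brighter was higher by 0.95 (SE 0.19, adjusted p = 0.0234), and the dimmer differed by 0.54 (SE 0.25, adjusted p = 0.341). LOC606419 (aprl1) differed by 0.76 (SE 0.27, adjusted p = 0.192).

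**Figure D2:**
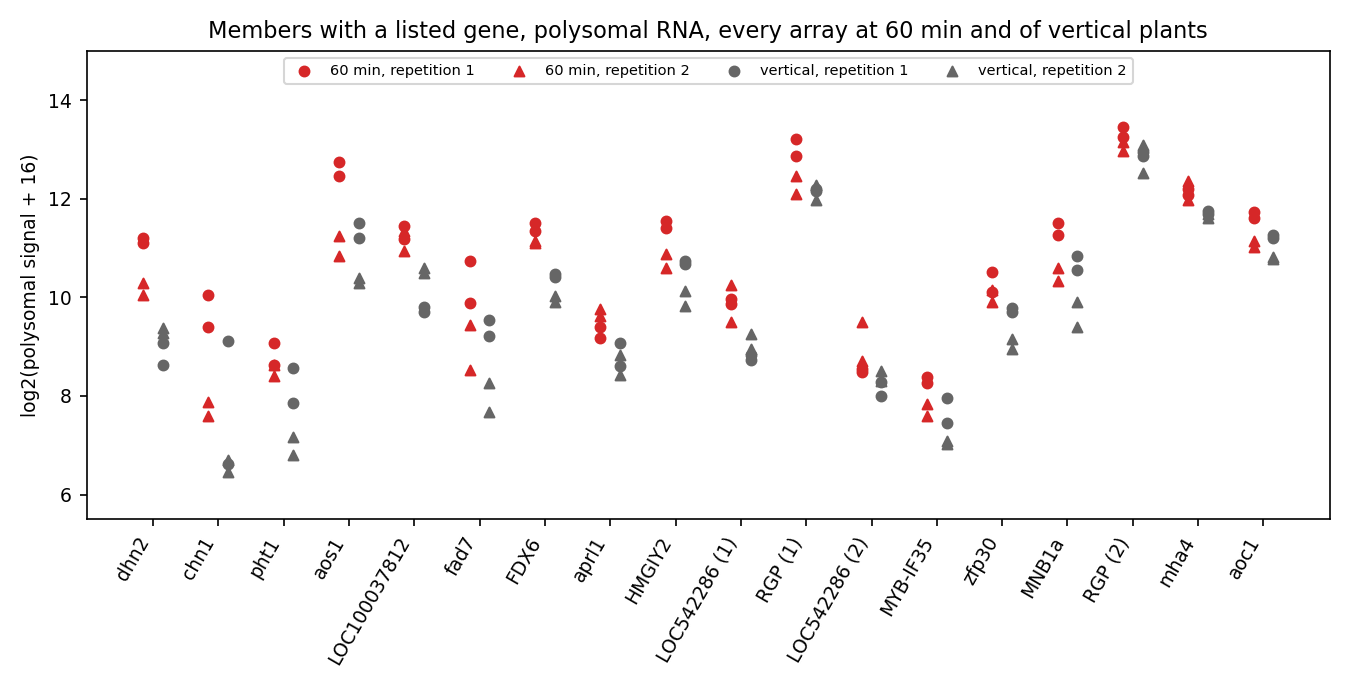
Log2 polysomal signal (y axis) of the 18 members with 1 listed gene (x axis, by total RNA difference), with each array at 60 min in red and each array of vertical plants in grey; circles are repetition 1 and triangles repetition 2. The 60 min points of FDX6, mha4, dhn2 and LOC100037812 lie above all of their vertical points, while those of chn1 overlap.

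The largest differences belonged to probe sets without a listed gene. Zm.2710.1.S1_at had total RNA differences of 0.31, -0.64, 1.82, 2.53 and 2.85 at 2, 5, 15, 30 and 60 min. In polysomal RNA it read 4724 and 1711 on the upper and 2974 and 624 on the lower side at 60 min, against 376 and 180.5 on the left and 531 and 159.5 on the right side of vertical plants. The lowest 60 min array was above the highest vertical array, and the polysomal difference was 2.76 (SE 0.38, limma adjusted p = 0.00268). Zm.5882.1.A1_at moved later, with total RNA differences of 0.19, 0.17, 0.91, 1.19 and 2.50. Its polysomal signals were 1132 and 689 on the upper and 588 and 287 on the lower side at 60 min, against 114 and 71.0 on the left and 134 and 69.6 on the right side of vertical plants. They did not overlap, and the polysomal difference was 2.50 (SE 0.34, adjusted p = 0.00268). Zm.10167.1.A1_at showed the deepest 5 min dip of all members, at -1.12 in total RNA and -1.91 in polysomal RNA, between 1.14 in total RNA at 2 min and 2.34 at 60 min. Its polysomal signals of 3651 and 2724 on the upper and 3552 and 2626 on the lower side at 60 min, against 1104 and 325 on the left and 1112 and 608 on the right side of vertical plants did not overlap, with a difference of 2.12 (SE 0.29, adjusted p = 0.00268).

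Polysomal RNA came from the same powders as the total RNA that chose the members, so its time course is also a description. Polysomal medians were 0.11, -0.11, 0.18, 0.41 and 0.75 at 2, 5, 15, 30 and 60 min. The polysomal difference at 60 min was above 0 in all 150 members, above 0 in both repetitions in all but 1 (Zm.4359.2.A1_x_at, at -0.24 in repetition 1), and ran from 0.22 to 2.76. It was the highest of the 5 times in 130 members (17.4% over all probe sets tested). Probe sets chosen at other times by the same rule kept their time as well. Of those highest at 15 min 137 of 150 did so, and of those highest at 30 min 110 of 148. Across members the 60 min differences in total and polysomal RNA correlated at r = 0.926, which is given as a description, since both kinds of RNA came from the same powders. Polysomal minus total difference at 60 min had a median of -0.07, and 133 members lay within 0.25 of 0. Farthest apart, and named after their values were seen, were Zm.783.1.S1_at at 1.47 in total and 0.70 in polysomal RNA, and Zm.8927.1.S1_at at 0.96 and 1.56.

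**Figure D3:**
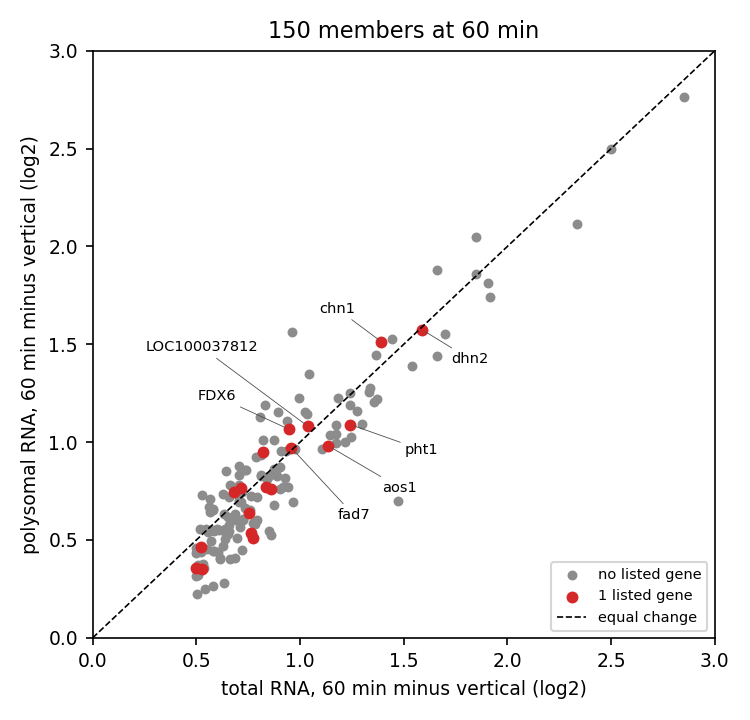
Log2 difference of 60 min from vertical plants in polysomal RNA (y axis) against that in total RNA (x axis) for the 150 members, red where 1 gene is listed; the dashed line marks equal change. The points follow the line between 0.50 and 2.85, with Zm.783.1.S1_at at 1.47 and 0.70 the farthest below it.

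In polysomal RNA at 60 min 54 members were higher past limma's adjusted threshold and 0 were lower (1.02% of all probe sets tested were higher and 0.495% lower). At an unadjusted p under 0.05 there were 130 (7.7% of all probe sets tested were higher at that p). The polysomal arrays measured the same plants as the total RNA that chose the members, so nothing is read from the members' share against that of all probe sets. At 30 min 20 were higher and 0 lower (1.97% higher, 0.398% lower), and at 15 min 10 were higher and 2 lower (2.75% higher, 0.971% lower). The 2 lower ones, named after their values were seen, were Zm.8789.1.A1_at at -1.01 (SE 0.22, adjusted p = 0.0163) and Zm.8344.1.A1_at at -0.70 (SE 0.18, adjusted p = 0.0452). Of the 54, 17 had also passed at 30 min, 9 at 15 min and 7 at both, and 35 passed at neither. In 64 members all 4 polysomal arrays at 60 min were above all 4 vertical arrays, against 4.67% of all probe sets tested.

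The count of 54 rested on few plant pools, and also on having the season in the fit. With the mean of both sides of a pool as 1 sample it was 7, with the season left out of the fit it was 0, and without a single array it was 32 (upper 60 min, repetition 1), 19 (upper 60 min, repetition 2), 20 (lower 60 min, repetition 1) and 28 (right vertical, repetition 2). FDX6, HMGIY2, Zm.2710.1.S1_at, Zm.5882.1.A1_at and Zm.10167.1.A1_at passed without any 1 of the 8 arrays compared and without the array that stood apart, while the adjusted p reached 0.0802 for pht1, 0.113 for aos1, 0.164 for LOC100037812 and 0.0857 for LOC542286 without 1 array. With pool means FDX6 (limma adjusted p = 0.0214), Zm.2710.1.S1_at and Zm.10167.1.A1_at (both 0.0447) passed, and HMGIY2 (0.0546) and Zm.5882.1.A1_at (0.0604) did not. Neither did aos1 (0.107), pht1 (0.0914), LOC100037812 (0.191) or the brighter LOC542286 probe set (0.0793).

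A difference between 60 and 30 min in polysomal RNA passed for 2 members, both higher at 60 min (0.0291% of all probe sets tested). FDX6 was higher by 0.61 at 60 than at 30 min (SE 0.11, adjusted p = 0.0298). Zm.1042.1.A1_at, named after its values were seen, was higher by 0.98 (SE 0.14, adjusted p = 0.0048). Its polysomal signals were 1211 and 988 on the upper and 1614 and 1016 on the lower side at 60 min, against 693 and 487 and 727 and 499 at 30 min. At 15 and 30 min it lay below vertical plants in total RNA, at -0.30 and -0.22. The rule required total RNA to be highest at 60 min, so the direction is the rule's.

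At 5 min 36 members lay below -0.4 in polysomal RNA and 17 above 0.4, counts that are not set against all probe sets tested. The median was -0.11 against 0.02 over all probe sets tested. It was -0.31 in repetition 1, which holds the array that stood apart, and 0.07 in repetition 2. With all arrays 4 members passed as lower and 0 as higher (0.379% lower, 0.184% higher). They were aos1 at -1.08 (SE 0.21, adjusted p = 0.0249), Zm.10167.1.A1_at at -1.91 (SE 0.29, adjusted p = 0.0146) and, named after their values were seen, Zm.8789.1.A1_at at -1.17 (SE 0.22, adjusted p = 0.0228) and ZmAffx.1132.1.A1_at at -1.51 (SE 0.27, adjusted p = 0.0177). Without the array that stood apart 0 passed (0.0388% lower, 0.0194% higher) and the median was -0.01. Between the sides at 5 min 30 members were higher and 2 lower on the lower side with that array (7.69% and 4.56%), and 8 and 0 without it (1.35% and 0.233%).

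The 2 sides of the pulvinus were compared as the lower minus the upper side, a difference that the rule did not use. The members tended to be lower on the lower, fast elongating side at 60 min. Their median lower minus upper difference in total RNA was -0.22 against -0.01 over all probe sets tested, and 122 of 150 members (81.3%) were below 0 against 52.7%. The members' median was -0.05 in repetition 1 and -0.35 in repetition 2, and 80 members were below 0 in both repetitions (53.3%, against 30.0%). Without an array of repetition 2 at 60 min the members' median was -0.09 (upper) or -0.08 (lower), and without one of repetition 1 it was -0.32 (either side). In 34 members both lower arrays were below both upper arrays (22.7%, against 11.7% of all probe sets tested). That share was 28.0% in probe sets highest at 15 min and 20.9% in those highest at 30 min. Members stood above vertical plants on both sides, by a median of 0.66 on the lower and 0.86 on the upper side. At 2, 5, 15 and 30 min the median lower minus upper difference was -0.05, -0.01, -0.10 and -0.03, and right minus left in vertical plants it was 0.02. Probe sets highest at 30 min under the same rule (148) had a median of -0.18 at 60 min, and those highest at 15 min (150) one of -0.24, so a median below 0 was not particular to the members.

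In total RNA 5 members passed at 60 min, all lower on the lower side (0.0777% of all probe sets tested were lower and 0.175% higher). At an unadjusted p under 0.05 there were 35 lower and 4 higher (4.95% and 4.84% of all probe sets tested). The excess of lower ones was not particular to the members. Probe sets highest at 15 min had 49 lower and 8 higher of 150, and those highest at 30 min had 23 and 6 of 148. LOC542222 (fad7) had total RNA signals of 789 and 352 on the lower side, against 1468 and 613 on the upper side. In each repetition the upper side was the higher, and the difference was -0.83 (SE 0.14, 2 arrays against 2, adjusted p = 0.0118). At 2, 5, 15 and 30 min it was 0.08, -0.10, -0.28 and -0.30. Without 1 array at 60 min, the 60 min difference of LOC542222 lay between -0.90 and -0.76. LOC542222 did not pass with no filter on the mean level (limma adjusted p = 0.065) or with the season left out of the fit (0.378). Without the plant pool as a block it did not pass either (0.9998). Zm.11822.1.A1_at read 174 and 60.4 on the lower side, against 790.4 and 213 on the upper side in total RNA. The lower side stayed within the range of the vertical arrays, which was 38.2 to 213, and the difference was -1.84 (SE 0.24, adjusted p = 0.00203). Zm.5882.1.A1_at, whose total RNA read 439 and 227 on the lower side, against 873 and 689 on the upper side, was above its vertical range of 55.7 to 104 on both sides. Its difference was -1.25 (SE 0.25, adjusted p = 0.0494).

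The other 2, named after their values were seen, were Zm.17916.1.S1_at at -0.94 (SE 0.18, adjusted p = 0.0349) and Zm.1671.1.A1_at at -0.85 (SE 0.16, adjusted p = 0.0336). All 5 had the same direction in both repetitions. Leaving out 1 of the 4 arrays at 60 min left 0 members (upper or lower array of repetition 1), 3 (upper, repetition 2) or 1 (lower, repetition 2), and 0 passed without the plant pool as a block. In a fit with the difference of the vertical sides taken off, 3 members passed, all lower (0.0291% of all probe sets tested): LOC542222 at -1.16 (SE 0.19, adjusted p = 0.03), Zm.17916.1.S1_at at -1.40 (SE 0.25, adjusted p = 0.0476) and Zm.11822.1.A1_at at -2.38 (SE 0.34, adjusted p = 0.0192). The labels do not tie right to lower, and with left set against lower the values were -0.49, -0.48 and -1.29. That pairing was not tested. Without 1 array, 2 members passed (left vertical, repetition 2), 1 passed (upper 60 min, repetition 2) or 0 passed (each of the other 6 arrays).

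The opposite direction was seen in few members. Zm.14805.1.A1_at, named after its values were seen, had the highest lower minus upper difference, with total RNA signals of 1259.7 and 967 on the lower side, against 369 and 508 on the upper side. Both lower arrays were above both upper arrays, but the difference of 1.32 (SE 0.36) did not pass (adjusted p = 0.182). In polysomal RNA it differed by 1.5 (SE 0.44, adjusted p = 0.697).

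**Figure D4:**
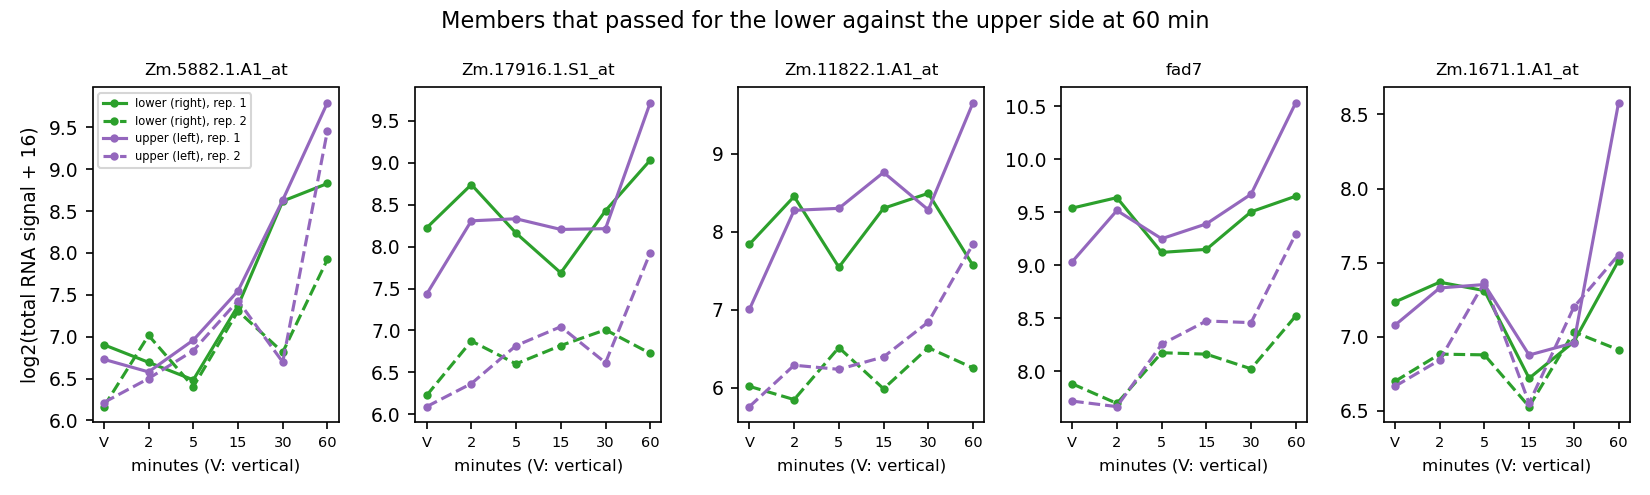
Log2 total RNA signal (y axis) against time in minutes, with vertical plants at V (x axis), of the 5 members that passed for the lower against the upper side at 60 min; green is the lower side (right in vertical plants), purple the upper side (left), solid lines repetition 1 and dashed lines repetition 2. In each panel the purple line lies above the green line of its repetition at 60 min.

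In polysomal RNA at 60 min no member passed between the sides by limma (0.00971% of all probe sets tested were called), and the lowest adjusted p was 0.466. At an unadjusted p under 0.05 there were 23 lower and 4 higher (1.77% and 2.27% of all probe sets tested). Probe sets highest at 15 min had 43 lower and 4 higher of 150, and those highest at 30 min had 7 and 5 of 148. The members' polysomal median was -0.18 against 0.00 over all probe sets tested, and 117 of 150 were below 0 (78%, against 50.3%). The members' median was -0.05 in repetition 1 and -0.25 in repetition 2, and -0.06 without the lower 60 min array of repetition 2 and -0.28 without that of repetition 1. Probe sets highest at 30 min had a polysomal median of -0.11, and those highest at 15 min one of -0.25. Both lower arrays were below both upper arrays in 23 members (8.81% of all probe sets tested). LOC542222 differed by -0.88 (SE 0.26, adjusted p = 0.731), Zm.11822.1.A1_at by -1.31 (SE 0.33, adjusted p = 0.466) and Zm.5882.1.A1_at by -1.07 (SE 0.32, adjusted p = 0.697). With the vertical sides taken off, 0 polysomal members passed in limma, and at an unadjusted p under 0.05 there were 16 lower and 4 higher (1.79% and 1.63% of all probe sets tested).

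**Figure D5:**
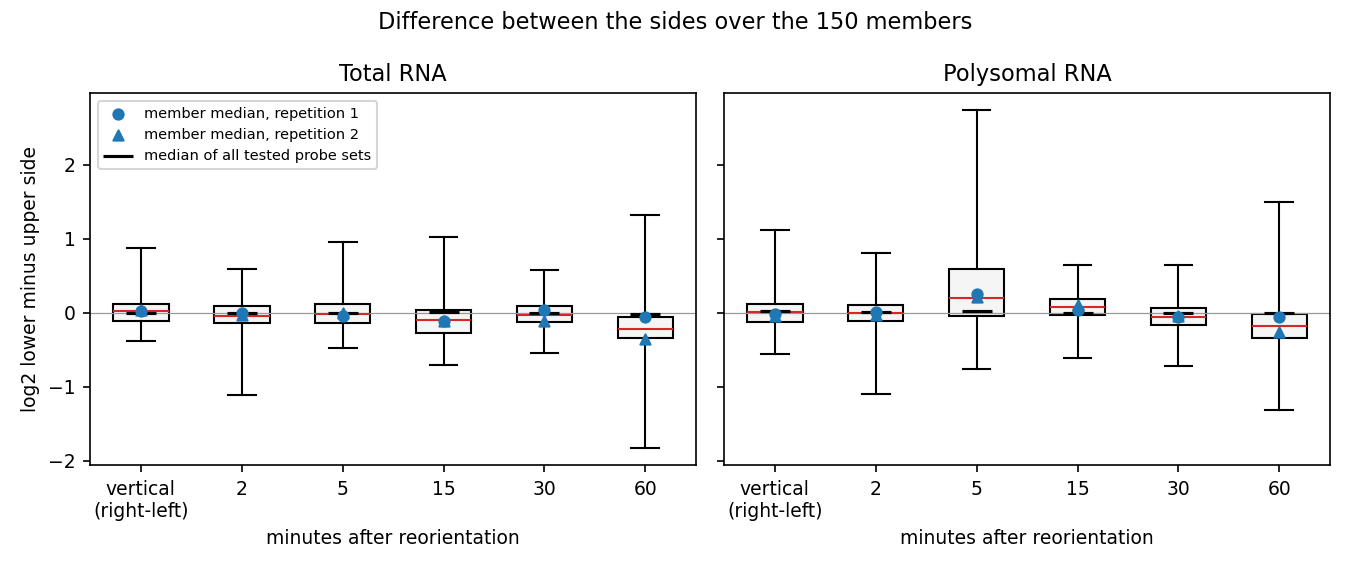
Log2 lower minus upper difference (y axis) over the 150 members at each time in minutes, with right minus left in vertical plants first (x axis), for total RNA on the left and polysomal RNA on the right; boxes hold the middle 50% with the median in red, whiskers reach the extremes, blue points are the medians of each repetition and black bars the median of all probe sets tested. At 60 min the members' medians are -0.22 in total and -0.18 in polysomal RNA, and the polysomal spread at 5 min includes the array that stood apart.

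Gene lists outside jasmonate held few members and few calls in polysomal RNA at 60 min. Where a list held a member, its values are in part set by the rule. Of 5 tested probe sets of abscisic acid and drought genes, 3 read LOC542251 (dhn2). The other 2 read LOC542280 (EMB5) at 0.54 (SE 0.62) and LOC542373 (dhn1) at 0.14 (SE 0.85), and 0 of the 5 passed. Of 4 probe sets of phosphate, nitrate and sulphate transport 1 passed, the member pht1, with a median of 0.92. Among 9 of pathogenesis and defence 1 was a member, 7 were above 0 and 0 passed, with a median of 0.22. Heat shock genes (11 probe sets, all above 0, median 0.20) had 0 members and 0 calls. Cell wall and expansin genes (28 probe sets) had 0 members, a median of -0.04 and 1 call, a probe set of the expansin gene expA4, whose product loosens cell walls, at 2.02 (SE 0.26, adjusted p = 0.00208). The other 2 probe sets of expA4 were at 0.18 (SE 0.35, adjusted p = 0.865) and 0.77 (SE 0.26, adjusted p = 0.163). Calcium signalling genes (10 probe sets) had 0 members, a median of 0.11 and 1 call, LOC542224 (CDPK1), a calcium-dependent protein kinase gene, at 0.92 (SE 0.21, adjusted p = 0.0451). Unlike the member pht1, the called probe sets of expA4 and CDPK1 peaked before 60 min in total RNA. The lists of glutathione S-transferases (18 probe sets, median 0.05), aquaporins (22, median -0.20), sucrose, invertase and starch (12, median -0.12), oxidative stress (9, median -0.14), phenylpropanoids and lignin (6, median 0.00), auxin (4, median -0.09), early stress transcription factors (3, median 0.12) and ethylene (2, median 0.29) had 0 members and 0 calls.

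Members resembled all probe sets tested in probe set type. Those with a plain suffix made up 84.7% of members and 84.8% of all tested, and 7 members (4.67%, against 3.75%) had the suffix x_at, which marks probes that can bind other transcripts. Their mean log2 level over the 48 arrays ran from 7.01 to 12.84 with a median of 8.68, against a median of 9.09 over all tested.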

How the data were processed

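The deposited table holds signal intensity per probe set on a linear scale, made by the authors with GCOS per the submitters' processing notes. Its version, scaling and detection calls are not given in the sources used here, and values were used as deposited, as log2(signal + 16). Fits used limma 3.58.1 (lmFit, eBayes with trend, statmod 1.5.0, R 4.3.3) on 10299 probe sets, separately for the 24 total and 24 polysomal arrays, with 12 groups, the repetition as a fixed effect and the plant pool as a random block (duplicateCorrelation, 0.576 in total and 0.381 in polysomal RNA). Each left 11 residual degrees of freedom, and the number of arrays limits the precision. A probe set passed at a Benjamini-Hochberg adjusted p under 0.05 over all 10299, and SE is that of the contrast.

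Per the labels, the repetitions were 2 growing seasons. Their number paired the groups. Over 66 group pairs, the median correlation of departures from the group mean was 0.626 for total RNA, with a range of 0.508 to 0.894. For polysomal RNA it was 0.664, with a range of -0.0231 to 0.898.

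The members, lists and tests were chosen with earlier results of these data known. Named were members with 1 listed gene, the 3 unnamed members with the highest difference, the 2 highest and 2 lowest that passed between the sides, those at the limit, and list genes that passed or belong to the jasmonate list. Synonyms in parentheses come from the RefSeq annotation of Zm-B73-REFERENCE-NAM-5.0, in which 1377 of 1452 probe sets with 1 gene were found. Promoters and sequences were not analysed here. Alternatives were 2 other pseudocounts, 2 other filters, quantile normalization, both blocks left out, pool means, and arrays left out singly.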

Additional observations from a re-analysis of the deposited data

Results flagged for a closer look

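With right set against lower, the side difference at 60 min in total RNA differed from that of vertical plants for 3 members. Tested was the difference itself (lower minus upper minus right minus left, limma). It was -1.16 for LOC542222 (fad7, SE 0.19, adjusted p = 0.03), -1.40 for Zm.17916.1.S1_at (SE 0.25, adjusted p = 0.0476) and -2.38 for Zm.11822.1.A1_at (SE 0.34, adjusted p = 0.0192). The lower minus upper difference at 60 min was -0.83, -0.94 and -1.84 in these members, and right minus left in vertical plants was 0.33, 0.46 and 0.55. The labels give the vertical sides as counterparts of the upper and lower sides in their order only. With left set against the lower side instead, the values are -0.49, -0.48 and -1.29. They are nearer to 0 and were not tested, so the calls hold for 1 of 2 possible pairings only. Under each alternative that leaves out the pool block, the season or the filter, 0 of the 3 passed.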

How the results depend on the processing

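Without the pool block, polysomal counts were 20 at 15 min, 36 at 30 min, 94 at 60 min and 11 for 60 minus 30 min, and 0 for both total RNA side comparisons at 60 min. With pool means the polysomal counts were 5, 9, 7 and 0. With the repetition left out (no replicate block), they were 0, 1, 0 and 0, the total RNA lower minus upper count was 3 and that with the vertical sides taken off 0. With no filter the total RNA counts were 1 and 0. Pseudocount 64 gave 4 for 60 minus 30 min. Without the polysomal array that stood apart, 1 member passed as lower on the lower side in polysomal RNA at 60 min. The cause was not tested.

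Leaving out 1 array at a time gave polysomal counts of 6 to 11 at 15 min, 10 to 21 at 30 min, 19 to 53 at 60 min and 1 to 2 for 60 minus 30 min. It gave 0 to 3 for total RNA lower minus upper at 60 min and 0 to 2 with the vertical sides taken off. An arm left with 1 array is assumed to vary like the other groups. Single probe sets were refitted for 24 in polysomal RNA at 60 min and for 5 between the sides in total RNA, and none of these differences changed sign. In polysomal RNA 360 of 408 repeats kept the call, 38 lost it and 10 gained it, and for the total RNA sides 24 of 55 kept it and 31 lost it. Under other settings the rule chose 145 (pseudocount 1), 130 of 133 (pseudocount 64), 124 of 140 (quantile normalization) and 146 (mean over total RNA arrays) of the members again. Each group had 2 arrays, and probe sets near background were left out by the mean of 7.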

Other observations

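Among members without a listed gene, chosen here after their values were seen, the smallest adjusted p in polysomal RNA at 60 min belonged to Zm.17519.1.A1_at. Its polysomal signals were 1232 and 764.5 on the upper and 1443 and 837 on the lower side at 60 min, against 382 and 198 on the left and 245 and 171 on the right side of vertical plants. The groups did not overlap, and the difference was 2.05 (SE 0.19, limma adjusted p = 0.000104). It had already passed at 15 min, at 1.45. Zm.783.1.S1_at had the lowest total RNA difference of all members at 15 min, -1.23, before 0.03 at 30 min and 1.47 at 60 min. Its polysomal difference was 0.70 at 60 min (SE 0.53, adjusted p = 0.592). Its total RNA signals were 2157 and 452 on the upper and 1625 and 291 on the lower side at 60 min, against 517 and 184 on the left and 319.5 and 226 on the right side of vertical plants.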
